A study of Mus musculus with 2 samples.

Results

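Annotated transcripts of 4000 bases or longer were described in long-read RNA sequencing of mouse hippocampus, a brain region needed for forming memories. A member was any transcript of the reference annotation, GENCODE M21, with a length of 4000 bases or more and at least 1 read in either library. There were 3673 such transcripts, from 3129 genes, among 24612 annotated transcripts with reads. The labels call the tissue a layer of hippocampus, from adult mice of strain B6NCrl (C57BL/6) aged 6 months and described as male, although the field for sex holds no value, and name no treatment or altered gene. Both libraries belong to 1 group and are numbered as biological replicates 1 and 2. They carry separate biosample identifiers and the same donor identifier, so the spread between them may be technical. Each read was assigned by TALON to 1 transcript model. A read whose introns match all of an annotated transcript counts for that transcript, and a read that matches only a part of its introns counts for an incomplete model. The incomplete class also holds unspliced models.

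A messenger RNA holds a coding part between a 5′ and a 3′ untranslated part, and ends where the polyadenylation machinery cuts it. The cut usually follows a hexamer, AATAAA or its variant ATTAAA, and many genes of the brain have several such sites in 1 last exon. The site that is used sets the length of the 3′ untranslated part without changing the protein. In the deposited tables, a read on an annotated model is listed at the annotated length whatever its own length.

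The letters around the ends of models are described below, so short stretches are shown for some of the most abundant members. For each member, spliced models with its last intron but without its full chain were collected, and the commonest place where they ended was taken. The first set gives the 30 bases before that end, with the hexamer in capitals, for the 4 of the 12 most abundant members with at least 5 such models that had one there.
Ctsb-201, chr14:63143105-63143134, plus strand: gtgccAATAAAccaattctccctctgcttg
Glo1-206, chr17:30592866-30592895, minus strand: ggctgaAATAAAgctaacactgtttagtac
Stk25-201, chr1:93621902-93621931, minus strand: catttcAATAAAgacctggattggaaatgt
Calb1-201, chr4:15905531-15905560, plus strand: gtgtgctctctgATTAAActcaatgtactg
The second set gives the 20 bases after the end, with each A in capitals, for Gpm6b-209, which is also among those 12 and has at least 12 A in that stretch.
Gpm6b-209, chrX:166386038-166386057, plus strand: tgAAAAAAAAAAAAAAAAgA
All stretches were copied from the GENCODE M21 transcript sequences, in coordinates of mm10 (GRCm38), and read 5′ to 3′ along the transcript. Each lies in the last exon of its gene, upstream of the annotated end.

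Replicate 1 held 1330153 reads on 133886 models and replicate 2 held 1366252 reads on 133393 models. A single read was worth 0.752 counts per 1000000 reads (CPM) of its library in replicate 1 and 0.732 in replicate 2. Marker genes of neurons, both main neuron classes, hippocampal fields and glia were detected in both libraries. The 8 choroid plexus markers summed to 13955 CPM in replicate 1, where 8 of them were detected, and 317 CPM in replicate 2, where 6 were. In bulk tissue, fewer cells of a type and less RNA per cell cannot be told apart. Of the members, 3114 were read in replicate 1, 3066 in replicate 2 and 2507 in both. The median member had 5 reads over both libraries, 811 had 1 read, 1429 had 10 or more and 279 had 100 or more. Exons of another annotated gene on the same strand overlapped 245 members, and on the opposite strand 973. The strand setting is not given in the sources used here, so reads of overlapping genes may be split between them.

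The members took 4.93% of all reads in replicate 1 (65596 reads, 95% interval 4.89 to 4.97) and 5.47% in replicate 2 (74792 reads, 5.44 to 5.51), a mean of 5.20% ± 0.384 (SD, n = 2). Intervals are exact Clopper-Pearson intervals and cover counting error only. The 20 members of highest mean CPM held 24.4% of the member reads in replicate 1 and 24.7% in replicate 2. Values of 18 of them follow.

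Calbindin, a calcium buffer of dentate granule cells, was read as Calb1-201 at 278 CPM in replicate 1 and 386 CPM in replicate 2. This transcript is mostly noncoding, with a coding part of 783 of its 4222 bases.

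Among transcripts of glial and membrane proteins, Gpm6b-209, a membrane proteolipid of neurons and glia, was at 432 CPM in replicate 1 and 553 CPM in replicate 2. Slc1a3-201, the astrocyte glutamate transporter GLAST, was at 276 CPM and 321 CPM, and Ttyh1-206, a member of the tweety family of membrane proteins, at 228 CPM and 441 CPM. Each of these transcripts was at a lower value in replicate 1, but Slc1a3-201 did not pass Fisher's exact test between the libraries, described below. Of the marker lists, 5 oligodendrocyte genes had a sum of 5006 in replicate 1 and 6760 CPM in replicate 2, 6 astrocyte genes of 3517 and 3755 CPM, 5 neuron genes of 4126 and 5189 CPM, and 4 glutamatergic genes of 828 and 798 CPM. Their part in these values was not tested.

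Transcripts for lysosomes, vesicle traffic and organelles followed. Ctsb-201 encodes the lysosomal protease cathepsin B and was at 698 CPM in replicate 1 and 733 CPM in replicate 2. Atp6v1a-202, the catalytic subunit of the vacuolar proton pump, was at 350 CPM and 493 CPM. Rab11b-201, a GTPase of recycling endosomes, was at 346 CPM and 482 CPM, and Gdi2-209, which extracts Rab GTPases from membranes, at 243 CPM and 381 CPM. Tomm20-201, an import receptor of the outer mitochondrial membrane, was at 338 CPM and 310 CPM, and Atp5g1-201, a ring subunit of ATP synthase, at 322 CPM and 281 CPM. The values of the mitochondrial pair were higher in replicate 1 and those of the other 4 were lower there. Ctsb-201, Tomm20-201 and Atp5g1-201 did not pass Fisher's exact test between the libraries, described below.

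The remaining abundant members were mixed in function. Glo1-206 encodes glyoxalase 1, which removes methylglyoxal, and was at 443 CPM in replicate 1 and 392 CPM in replicate 2. Rps15a-204, a protein of the small ribosomal subunit, was at 401 CPM and 438 CPM. Zfp706-201, a small zinc-finger protein, was at 420 CPM and 556 CPM. The kinase transcript Stk25-201 was at 275 CPM and 425 CPM, the ubiquitin ligase transcript Pja2-203 at 308 CPM and 412 CPM, and Med28-205, a Mediator subunit, at 252 CPM and 244 CPM. The members with a single exon were Pnmal2-201, of a family related to retrotransposon proteins, at 421 CPM and 375 CPM, and 2900097C17Rik-202, an annotated long intergenic noncoding RNA, at 575 CPM and 501 CPM.

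**Figure D1:**
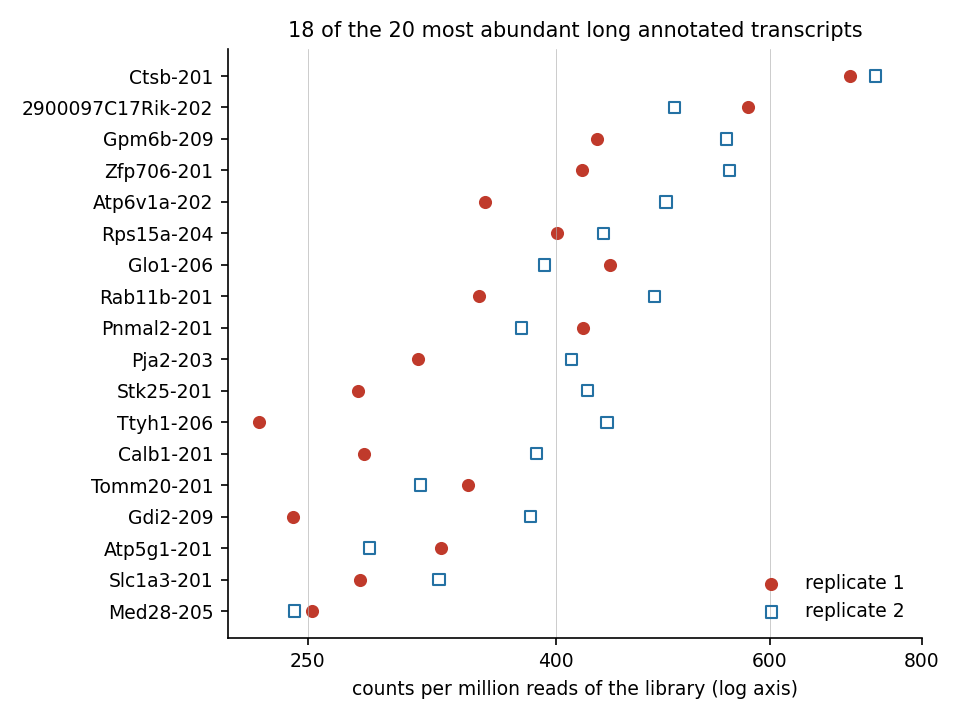
Level of 18 of the 20 most abundant long annotated transcripts in CPM (log axis), with a filled circle for replicate 1 and an open square for replicate 2. All values lie between 228 and 733, and Ctsb-201 and 2900097C17Rik-202 have the highest means shown.

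The length of the members lay mainly in 1 exon. Their median length was 4929 bases (interquartile range 4384 to 6002), and 100 members were annotated at 10000 bases or longer. The last exon of the 3452 spliced members had a median of 3265 bases, or 65.1% of the transcript, against 641 bases and 44.8% in shorter annotated transcripts. It made up over 50% of the length in 2358 spliced members, which held 88.6% of their reads in replicate 1 and 88.1% in replicate 2. The coding part had a median of 1881 bases in 3385 members and of 954 bases in shorter transcripts. Weighted by reads, the coding part took 26.0% of a member's length and 53.4% of a shorter transcript's. Most members, 3340, were annotated as protein coding, 180 as retained introns, 45 as targets of nonsense-mediated decay and 26 as long intergenic noncoding RNA. The members had a median of 10 exons, against 5 in shorter transcripts, and 221 had a single exon.

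The files give no length for a single read on an annotated model, so the ends of other models were used. A model with an unannotated or incomplete chain is listed with ends that need not be the annotated ones. Of the spliced members, 1879 shared their last intron with at least 5 such models. The median end of these models lay 1432 bases before the annotated 3′ end (interquartile range 2 to 2800 bases over members). For annotated transcripts under 4000 bases the same median was 0 over 9407 transcripts. The models ended more than 500 bases early, by their median, in 1197 members (63.7%), against 11.5% of the shorter transcripts. Those 1197 members held 88.7% of the reads of the assessed members in replicate 1 and 89.6% in replicate 2. Another 366 members had a median end exactly at the annotated one. Among 1052 members with at least 5 such models in each library, 639 passed 500 bases in both libraries and 34 in 1 library only. Members of 1 gene with the same last intron share their models, so these counts are not of independent members. Gpm6b-209 and Gpm6b-203, for example, were scored from the same 28 models. The rule for members uses the annotated length, and a longer last exon leaves more room for an early end. How the tool sets the ends of models is not given in the sources used here. All 53 models of Lrpprc-201, described below, ended exactly at the annotated end. Whether ends were moved to annotated positions was not tested.

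Taking the median end as the end of the transcript gives an end-adjusted length. It was 4000 bases or longer for 836 members (44.5%), which held 12.9% of the reads of assessed members in replicate 1 and 11.7% in replicate 2. Weighted by reads, the median annotated length was 4618 bases and the median end-adjusted length 2326 bases. The share of members whose models ended over 500 bases early was 47.8% for lengths of 4000 to 4499 bases, 56.8% for 4500 to 4999, 68.9% for 5000 to 5999, 83.0% for 6000 to 7999 and 96.4% from 8000 bases. This measure assumes that listed ends are those of the reads, and that reads counted for a member end where the other spliced models do. The files show neither.

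**Figure D2:**
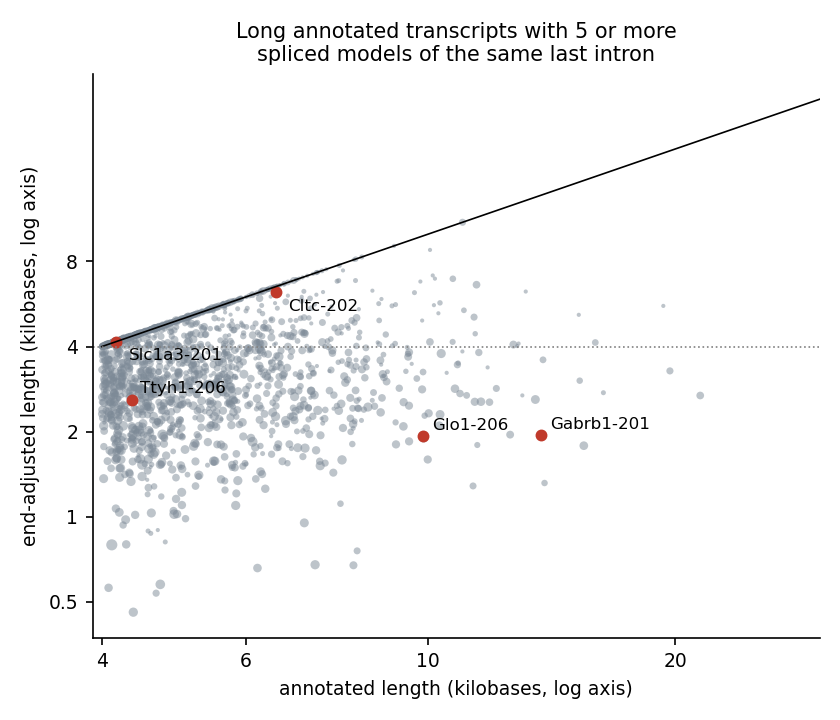
Annotated length against end-adjusted length, both in kilobases on log axes, for the 1879 long annotated transcripts with 5 or more spliced models of the same last intron. Point size grows with reads, the solid line marks equal lengths and the dotted line 4 kilobases. Slc1a3-201 lies on the solid line, while Glo1-206 has an end-adjusted length of 1935 bases and Gabrb1-201 of 1949 bases.

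The abundant members show the pattern one by one. For Gpm6b-209, all 28 models ended over 500 bases early, and 27 of them ended within 24 bases of each other, 2951 bases early. That end lies in the last exon, and 17 of the 20 bases after it are A, as shown above. It had neither hexamer in the 30 bases before it. The part of the A-rich stretch in the position of this end was not tested.

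Other members had a hexamer. For Ctsb-201, 36 of 37 models ended 2789 bases early, and the last 25 bases before that end began with AATAAA. For Stk25-201, 36 of 37 models ended 2151 bases early, and the last 24 bases began with AATAAA. The models of Glo1-206 ended at 1935 bases of an annotated 9865, 8 of 9 of them within 24 bases of each other. The last 24 bases before that end began with AATAAA. For Calb1-201, 10 of 20 models ended 2504 bases early, and the last 18 bases began with ATTAAA. The shared ends of Rab11b-201 (11 of 12 models, 4266 bases early) and Ttyh1-206 (37 of 79, 1759 bases early) had neither hexamer in 30 bases and at most 2 A in the next 20.

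Over all spliced members, 4228 distinct ends lay in the last exon more than 500 bases before the annotated end. AATAAA or ATTAAA stood in the 40 bases before 33.7% of them, on the transcript strand, against 4.56% of all positions of the same last exons. At least 12 A stood in the 20 bases after 22.1% of them, against 1.74% of positions. Both features were met at 94 ends, the hexamer without the A-rich stretch at 1331, the A-rich stretch without the hexamer at 841 and neither at 1962. Of 1030 annotated ends at which such a model ended, 84.0% had one of the hexamers in the last 40 bases. A match describes letters and is not evidence that a site was used. Whether an early end is the annotated end of another transcript of the same gene was not tested.

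For a minority of abundant members, the listed ends of models reached the annotated end. Slc1a3-201 had a median early end of 0 bases in each library, with 19 of 33 models at the annotated end. Hpcal4-201, of a family of neuronal calcium sensors, had 9 of 11 models at the annotated end of 4931 bases. Scamp1-201, a secretory carrier membrane protein of 4259 bases, also had a median of 0 in each library. Copg1-202, a coat protein of Golgi vesicles annotated at 4140 bases, had a median of 0 in replicate 1 and of 532.5 bases in replicate 2. These examples were chosen after their values were seen.

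The longest members with 10 or more reads over both libraries all ended early where models existed. D10Wsu102e-201 is annotated at 123179 bases and had 14 reads in replicate 1 and 12 in replicate 2, but its 1 informative model ended 119667 bases early. D1Ertd622e-201, at 40378 bases, had 19 and 18 reads, and its 2 models had a median end 37585 bases early. Gabrb1-201, the beta1 subunit of the GABA-A receptor, is annotated at 13737 bases and had 148 and 199 reads. Its 23 models all ended early, by a median of 11788 bases in replicate 1 and 11790 in replicate 2. Hnrnpr-207, Ntrk3-201, Tmem245-201, Serbp1-201 and Ago2-201, annotated at 13800 to 21452 bases, had end-adjusted lengths of 1785 to 4136 bases. The unspliced Kcnq1ot1-201, an imprinted antisense RNA of 93092 bases, had 4 and 7 reads, and 9330162G02Rik-201, of 30942 bases, had 13 and 16. For these 2 the method gives no end.

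Models made from 1 read carry that read's extent as the deposited annotation gives it. The spliced ones used here include incomplete models and leave out reads that match all introns of an annotated transcript. Among single-read spliced models of the members' genes, 8.53% were 4000 bases or longer in replicate 1 (1302 of 15272, 95% interval 8.09 to 8.98) and 7.12% in replicate 2 (1132 of 15889, 6.73 to 7.54). In the other genes with annotated reads the shares were 1.20% and 0.881%. Their median length in the members' genes was 2017 bases in replicate 1 and 2089 in replicate 2, and the longest had 7713 and 7311 bases. The longest model not taken from the annotation, of any class and gene, had 7990 bases, while 123179 bases is the longest length listed for an annotated one.

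**Figure D3:**
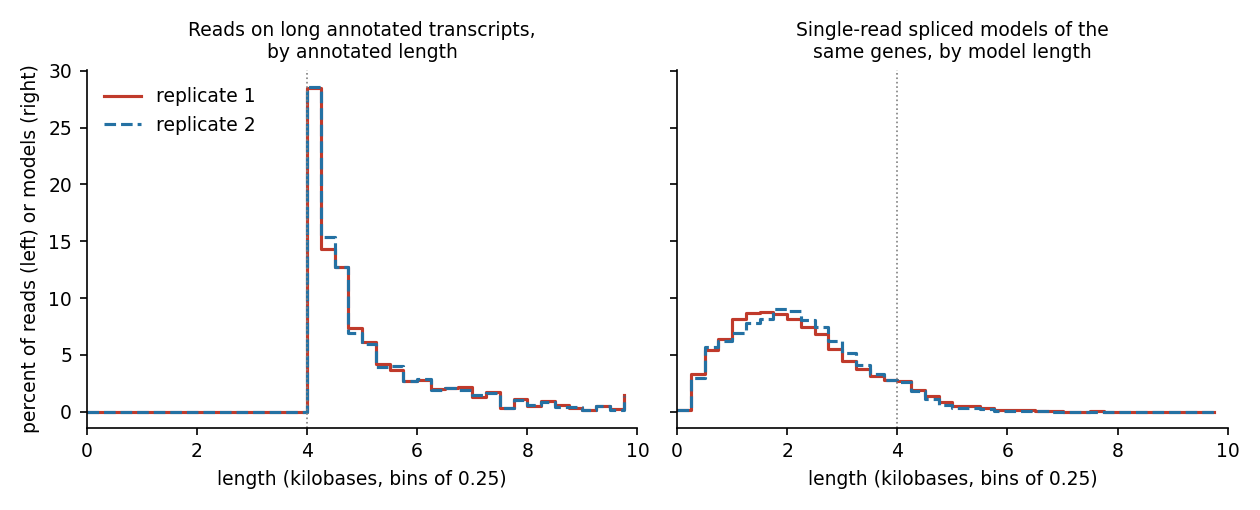
Left, the reads on long annotated transcripts by annotated length, as a percent of all reads on them (lengths from 10 kilobases not drawn). Right, single-read spliced models of the same genes by their own length, as a percent of these models. Bins are 0.25 kilobases, the solid line is replicate 1, the dashed line replicate 2 and the dotted line 4 kilobases. All reads on the left lie at 4 kilobases or more by the rule for members. Of the models on the right, 8.53% in replicate 1 and 7.12% in replicate 2 do. Reads that match a full annotated chain are absent on the right, so the sides are not alike.

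Members whose coding part alone reached 4000 bases were few. There were 234, from 207 genes, with 557 reads in replicate 1 (0.849% of member reads) and 485 in replicate 2 (0.648%). The highest by mean CPM was Zfp292-201, a zinc-finger transcription factor with 8094 coding bases, at 44 and 42 reads. Its 7 models had a median end 8391 bases early. Gpatch8-206 had 26 and 46 reads, and Lrpprc-201, a mitochondrial RNA-binding protein with 38 exons, had 27 and 25 reads. The 53 models of Lrpprc-201 had a median end at the annotated one. Cltc-202, the clathrin heavy chain, had 21 and 6 reads and a median end 304 bases early. In the genes of these 234 members, incomplete models took 88.3% of incomplete plus annotated reads in replicate 1 (95% interval 87.4 to 89.0) and 90.1% in replicate 2 (89.4 to 90.8).

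Incomplete models were more frequent in the genes of long annotated transcripts than in other genes. The incomplete share, incomplete reads over incomplete plus annotated reads, was 35.8% in the 3129 genes with a member in replicate 1 (51814 incomplete and 93026 annotated reads, 95% interval 35.5 to 36.0) and 33.2% in replicate 2 (54106 and 108633 reads, 33.0 to 33.5). In the 10996 other genes with annotated reads it was 12.7% in replicate 1 and 11.8% in replicate 2. The difference was 23.1 percentage points in replicate 1 and 21.4 in replicate 2, a mean of 22.2 ± 1.18 (SD, n = 2). Within each library, Fisher's exact test (two-sided) gave a p of at most 1e-300, the smallest value written, and covers counting error only. Per gene with 20 or more such reads, the median was 38.2% in 1828 genes with a member and 10.7% in 6069 others. Incomplete reads outnumbered annotated ones in 1167 genes with a member (37.3%) and in 1400 other genes (12.7%).

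The share did not climb evenly with length. By the length of the gene's leading annotated transcript, its mean over the libraries was 5.98% ± 0.332 below 1000 bases, 8.31% ± 0.281 from 1000, 19.7% ± 2.24 from 2000, 30.4% ± 3.18 from 3000, 29.4% ± 0.942 from 4000, 42.7% ± 1.25 from 5000 and 38.3% ± 1.69 from 7000 bases (SD, n = 2). In the class from 4000 bases the median gene had 37.5%. Within classes of exon number, genes led by a long transcript had the higher share each time. For 2 to 4 exons it was 20.3% ± 2.49 against 8.003% ± 0.0529, for 5 to 9 exons 17.7% ± 0.241 against 11.9% ± 0.766, for 10 to 19 exons 40.4% ± 2.85 against 25.4% ± 3.08, and from 20 exons 71.1% ± 1.16 against 50.5% ± 1.57 (SD, n = 2).

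**Figure D4:**
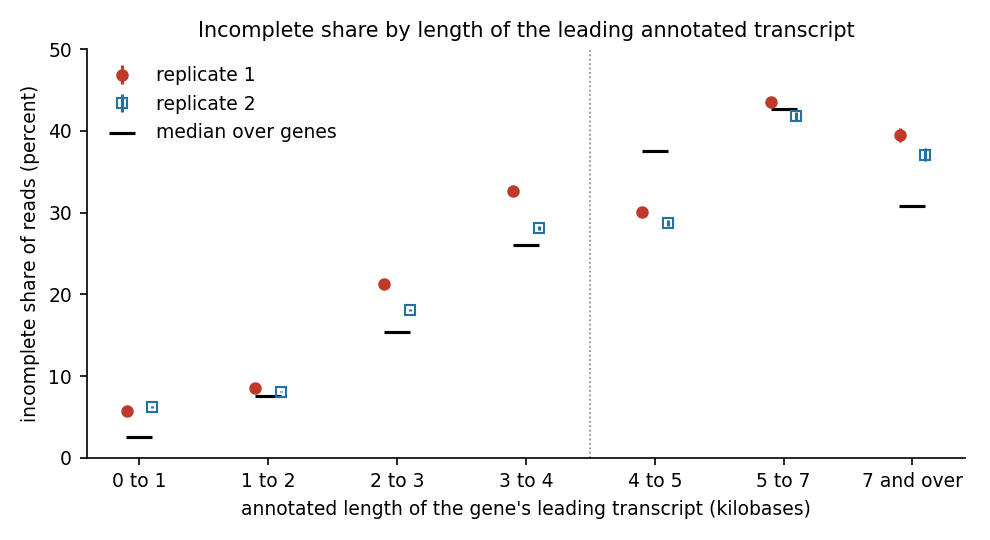
Incomplete share of reads in percent, by annotated length of the gene's leading transcript in kilobases. Circles are replicate 1 and squares replicate 2, with exact 95% intervals, and black bars are medians over genes with 20 or more reads. To the right of the dotted line the leading transcript is a long one. The means of the pooled shares are 5.98% in the shortest class and 38.3% in the longest.

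Incomplete models fell into 3 main kinds. In the genes with a member, models that match the 3′ part of an intron chain held 45.1% ± 1.66 of incomplete reads, those that match the 5′ part 32.9% ± 0.404 and unspliced ones 18.7% ± 1.95. In the other genes these were 57.3% ± 2.14, 23.0% ± 0.310 and 17.2% ± 2.76 (SD, n = 2). The 3′-part models of the members' genes had a median length of 1977 bases in replicate 1 and 2064 in replicate 2, against 1459 and 1516 bases in other genes. Of their reads, 5.55% and 5.03% lay on models of 4000 bases or longer.

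Single genes spanned the whole range. Among 433 genes with 100 or more such reads where members held at least 80% of the annotated ones, the median share was 24.5%. Among the highest were Myt1l, a neuronal transcription factor, Smarca4, the ATPase of a chromatin remodeller, Cnksr2, a synaptic scaffold protein, and Scn8a, a sodium channel. Cnksr2 had 245 incomplete and 0 annotated reads in replicate 1, and 327 and 3 in replicate 2. Of the Cnksr2 incomplete reads over both libraries, 432 matched the 5′ part of a chain and 86 the 3′ part. At the low end, 25 of the genes had 0 incomplete reads in both libraries, 16 with a leading transcript of a single exon and 9 with a spliced one. The first 5 of the tie by name were 2900097C17Rik, Ado, Ccdc85b and Cstf2t, whose leading members have a single exon, and Commd1, whose leading member shares exon sequence with another annotated gene on the same strand. A single-exon transcript has no intron chain to match in part. The share is counted per gene, so a leading transcript of a single exon does not alone set it to 0.

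Many genes with a long annotated transcript had incomplete reads and no annotated ones. GENCODE M21 lists 7261 genes with a transcript of 4000 bases or longer. Of these, 3129 had a member, 1009 had annotated reads on shorter transcripts only, and 1265 had incomplete reads but no annotated read at all. The incomplete reads are counted by gene and may stem from its shorter transcripts. The last group held 12621 incomplete reads in replicate 1 and 13099 in replicate 2, and the median of their longest transcripts was 6359 bases.

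Brain genes were also described by 12 lists, chosen with earlier results on these libraries known. They hold 348 genes, of which 288 have a long annotated transcript and 155 a member, and 121 of the rest had incomplete reads, 79 with 0 annotated reads and 42 with some. The incomplete shares and gene medians given below for a list cover its genes with a member. Map1a, a microtubule-associated protein with a longest transcript of 11825 bases, had 449 incomplete reads in replicate 1 and 482 in replicate 2, and 0 annotated reads in both. Dync1h1, the cytoplasmic dynein heavy chain, had 132 and 162 incomplete reads and 0 annotated ones, and Itpr1, the calcium release channel of the endoplasmic reticulum, 127 and 133 with 0. Atp2b1, a plasma membrane calcium pump, had 498 and 661 incomplete reads, and its 15 and 14 annotated reads fell on shorter transcripts.

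In the list of cytoskeleton, ankyrins and motors, 17 of 28 genes with a long annotated transcript had a member, at a summed 222 CPM in replicate 1 and 283 CPM in replicate 2. The incomplete share of its genes with a member was 86.1% in replicate 1 and 85.3% in replicate 2. Their gene median was 89.0%, beside 38.2% for all genes with a member. Kif5b, a kinesin motor, had 699 incomplete and 31 annotated reads in replicate 1, and 724 and 44 in replicate 2. Most of them, 1090 over both libraries, matched the 5′ part of a chain. Mapt-204, the tau transcript, was at 115 CPM and 173 CPM, and the models of its last intron ended 3849 bases early.

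Among adhesion, matrix and guidance genes, 12 of 31 had a member, at a summed 82.7 CPM and 93.0 CPM. The incomplete share was 73.1% in replicate 1 and 72.9% in replicate 2, with a gene median of 64.9%. Cntn1, an axonal adhesion molecule, had 91 incomplete and 44 annotated reads in replicate 1, and 94 and 51 in replicate 2. Among ion channels and calcium release genes, 12 of 29 had a member, at 108 CPM and 126 CPM. Their share was 55.1% and 80.6%, with a gene median of 62.6%. In the list of RNA binding and translation control, 21 of 26 genes had a member, at 184 CPM and 212 CPM, with shares of 68.3% and 65.4% and a gene median of 77.4%. Hnrnpu, a nuclear RNA-binding protein, had 171 incomplete and 62 annotated reads in replicate 1, and 185 and 47 in replicate 2. For transcription and chromatin, 11 of 30 genes had a member, at 93.2 CPM and 122 CPM, with shares of 66.1% and 54.9% and a gene median of 76.6%.

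Lists of synaptic genes held several receptor and kinase transcripts. Of neurotransmitter receptors, 19 of 25 genes had a member, at 579 CPM in replicate 1 and 712 CPM in replicate 2. Their incomplete share was 49.8% and 41.5%, and the gene median of 38.3% was beside 38.2% for all genes with a member. Gria2-201, an AMPA receptor subunit of 10371 bases, was at 125 CPM and 144 CPM and had an end-adjusted length of 3781 bases. It overlaps another annotated gene on the same strand. Ntrk2-202, a short form of the BDNF receptor TrkB, was at 142 CPM and 124 CPM. Of postsynaptic scaffolds and CaMKII, 8 of 24 genes had a member, at 311 CPM and 386 CPM, with shares of 53.9% and 50.2% and a gene median of 31.6%. Camk2a, the alpha subunit of CaMKII, had 428 incomplete and 133 annotated reads in replicate 1, and 394 and 175 in replicate 2, and 625 of its incomplete reads were unspliced. Of presynaptic release and vesicle proteins, 10 of 24 had a member, at 390 CPM and 508 CPM, with shares of 61.4% and 43.7% and a gene median of 50.1%. Cplx2, which encodes a complexin, had 687 incomplete reads in replicate 1, 653 of them unspliced, and 17 in replicate 2. Its part in the difference of these shares was not tested.

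Of kinases, phosphatases and second messengers, 19 of 28 had a member, at 750 CPM and 856 CPM, with shares of 54.3% and 41.8% and a gene median of 55.7%. Ppp3ca-202, the catalytic subunit of calcineurin, was at 172 CPM and 211 CPM. Its gene had 585 incomplete reads in replicate 1, 331 of them unspliced, and 281 in replicate 2, where 0 were unspliced. The part of this gene in the difference of the shares was not tested. Of pumps and transporters, 13 of 22 had a member, at 596 CPM and 691 CPM, with shares of 44.6% and 45.1% and a gene median of 62.3%. The list of astrocyte, oligodendrocyte and microglia genes had 6 genes with a member out of 10, at 1525 CPM and 1978 CPM, and shares of 5.36% and 11.4%. Its gene median was 8.80%. Long noncoding RNA genes had 7 of 11, at 159 CPM and 118 CPM, with shares of 3.03% and 4.44%. The leading member there, Malat1-201, is unspliced, overlaps another annotated gene on the same strand, and had 176 reads in replicate 1 and 121 in replicate 2.

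The libraries differed in the share of reads on long annotated transcripts by more than counting error. The ratio of replicate 1 to replicate 2 was 0.901, and Fisher's exact test (two-sided) between them gave p = 1.45e-89. This test compares the libraries, since there is no second condition. The difference was -0.543 percentage points, and -0.366 points when only annotated reads were counted. Without any reads of the choroid plexus marker genes, in the members and in the totals, the shares were 5.001% in replicate 1 and 5.48% in replicate 2, a difference of -0.475 points. The read classes also differed between the libraries. Annotated reads were 66.3% of all reads in replicate 1 and 70.1% in replicate 2, genomic reads 8.34% and 6.53%, and antisense reads 5.23% and 2.98%. The part of these classes in the difference was not tested.

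Each annotated transcript with 10 or more reads over both libraries was compared across libraries with Fisher's exact test (two-sided), adjusted after Benjamini and Hochberg, with a threshold of 0.05. Among all 9781 tested, 5.34% passed, with 1.36% higher and 3.98% lower in replicate 1. Of the 1429 members tested, 55 passed (3.85%), which is below that background. Of these, 13 were higher and 42 lower in replicate 1. The log2 of the TMM factors, replicate 1 over replicate 2, was -0.13, which raises every log2 ratio by that size, and with TMM library sizes the split was 27 and 28. The edgeR exact test, whose common dispersion comes from the same 2 libraries, called 3 members (52 at an unadjusted p under 0.05) and 0.225% of all transcripts.

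The 3 members that passed both tests are of different kinds. Wdfy1-204, which encodes an endosomal WD-repeat protein, had 2 reads in replicate 1 and 55 in replicate 2, a log2 ratio of -4.74 (95% interval -7.82 to -2.82). Its adjusted p was 5.53e-12 by Fisher's exact test and 2.03e-06 by the edgeR exact test. Tug1-203, a transcript at the locus of the noncoding RNA Tug1, had 36 reads in replicate 1 and 5 in replicate 2, a log2 ratio of 2.89 (1.53 to 4.59). Nptxr-201, the neuronal pentraxin receptor, had 0 reads in replicate 1 and 17 in replicate 2. Against the floor of 3 reads per library it was 5.52-fold lower in replicate 1, and the 95% interval of its log2 ratio reached up to -2.01. Tug1-203 and Nptxr-201 overlap exons of another annotated gene on the same strand, so their counts are uncertain.

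Of the 5 highest and 5 lowest ratios among the members that passed Fisher's exact test, the other 7 did not pass the edgeR exact test. Tbp-211, the TATA-binding protein, had 10 reads in replicate 1 and 0 in replicate 2. Against the floor it was 3.42-fold higher in replicate 1, and the interval of its log2 ratio reached down to 1.20. Trim2-206, a ubiquitin ligase, had 20 reads and 3 reads, Slc2a12-201, a glucose transporter, 22 and 4, and Nras-201, a small GTPase, 30 and 10. Lower in replicate 1 were Prkce-202, protein kinase C epsilon, with 3 and 22 reads, Pde12-201, a mitochondrial phosphodiesterase, with 13 and 44, and Add3-212, an adducin, with 17 and 48. These values are of single transcripts. The incomplete reads of the gene were 67 in replicate 1 and 37 in replicate 2 for Prkce. They were 67 and 40 for Add3, and 1 and 0 for Pde12. Pde12-201 overlaps exons of another annotated gene on the same strand, so its count is uncertain. The adjusted p-values of these 7 by the edgeR exact test lay between 0.299 and 1. Of the 20 most abundant members, 10 passed Fisher's exact test as lower in replicate 1 and 0 as higher. With TMM library sizes 10 passed as lower and 4 as higher, and the edgeR exact test called 0. Among them, Ttyh1-206 had a log2 ratio of -0.95 (-1.16 to -0.75, adjusted p = 2.63e-19 by Fisher's exact test) and Gpm6b-209 of -0.35 (-0.51 to -0.20).

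**Figure D5:**
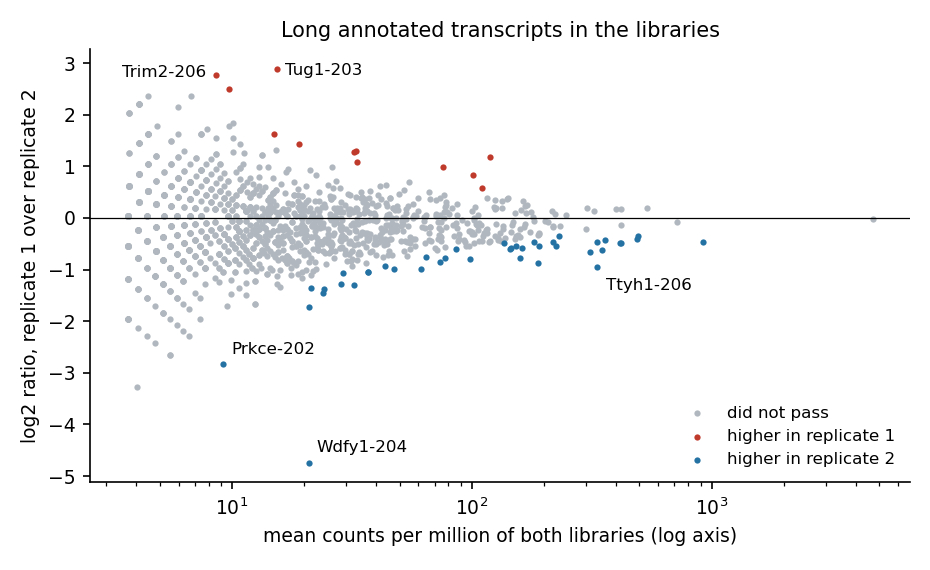
Log2 ratio of replicate 1 over replicate 2 against mean CPM (log axis) for long annotated transcripts with 10 or more reads over both libraries and reads in each. Red points passed the Fisher's exact test as higher in replicate 1, blue points as higher in replicate 2, grey points did not pass. Wdfy1-204 lies at -4.74 and Ttyh1-206 at -0.95.

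The incomplete share was also compared between the libraries, gene by gene. Of 5646 genes with 20 or more incomplete plus annotated reads in each library, 3.52% passed the same kind of test, 2.46% with the higher share in replicate 1 and 1.06% in replicate 2. Of the 1174 among them with a member, 48 passed (4.09%), 27 with the higher share in replicate 1 and 21 in replicate 2. With spliced incomplete models only, 5 of 1111 passed (0.450%), 4 with the higher share in replicate 1 and 1 in replicate 2. Over all 5510 genes tested that way, 0.417% passed, 0.290% and 0.127% in these directions. Tcf25, Mef2c, Pde2a and Prkce were among them. The genes named next were chosen after their values were seen.

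For several of these genes, unspliced incomplete reads in one library stood beside genomic reads in the other. Cplx2, encoding complexin 2, had 653 unspliced incomplete and 165 genomic reads in replicate 1, against 0 and 588 in replicate 2. Spin1, a histone reader, had 7 unspliced incomplete and 142 genomic reads in replicate 1, against 136 and 0 in replicate 2. Rab6b, a neuronal Golgi GTPase, had 2 and 171 reads in replicate 1, against 171 and 0 in replicate 2, and Ap2a2, an adaptor of clathrin coats, 0 and 143 against 110 and 0. In these 4 genes the library with fewer unspliced incomplete reads held more genomic reads. Genomic reads were counted whatever their number of exons. With genomic reads added to incomplete ones, 31 of 1547 genes with a member passed (2.004%), with a higher share in replicate 1 for 27 and a lower one for 4. Over all 6324 genes tested that way, 1.74% passed, 1.5% with a higher and 0.237% with a lower share in replicate 1.

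At the limit of 4000 bases, the nearest members with 10 or more reads were Pcdh8-201 (4000 bases, 8 reads in replicate 1 and 5 in replicate 2), Gjc3-201 (4002 bases, 16 and 22) and Sgpp2-201 (4002 bases, 5 and 5). Just outside were Prkacb-204 (3999 bases, 26 and 38 reads), Abcg4-208 (3999 bases, 7 and 11) and Bicd1-204 (3998 bases, 6 and 8).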

How the data were processed

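RNA of mouse hippocampus was measured by long-read sequencing in 2 libraries of 1 group, taken from the labels. For each library the authors deposited a table of raw read counts by transcript model, which they had not normalized. TALON made the models per the file headers, and the build is mm10 with GENCODE M21 per the deposited description files. Which aligner, versions, platform, filters and strand setting were used is not given in the sources used here. Members have the class Known and a length of 4000 bases or more. The members and the gene lists were chosen with earlier results of these data known.

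CPM used all reads of a library as the total. A count of 0 has a floor of 3 reads, or 2.26 CPM in replicate 1 and 2.20 CPM in replicate 2. Transcripts needed 10 reads over both libraries and genes 20 in each for the Fisher's exact tests (SciPy 1.17.1), adjusted over all features tested. TMM factors and the exact test came from edgeR 4.0.16 and size factors from DESeq2 1.42.0, in R 4.3.3. The counts of the libraries differed by more than sampling noise, so they were kept as 2 samples. Ends were compared in models of the classes ISM, NIC and NNC, that is incomplete models and those with a new combination of known splice sites or a new splice site. Fisher's exact tests were checked on simulated counts with sampling noise only. That check does not cover the larger spread between these libraries.

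Members were named by rule: the 20 of highest mean CPM, the 10 longest with 10 reads, the 5 highest and 5 lowest ratios that passed, the 5 genes of highest and lowest incomplete share, the 3 highest of each list and the 3 nearest to the limit on either side. Some members of a list are not written out, and results of a few members that the rule names are not reported here. Choices made after values were seen are named as such, and so were the settings without choroid plexus markers, without the mitochondrial genome, and with genomic reads in the test of the incomplete share.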

Additional observations from a re-analysis of the deposited data

How the results depend on the processing

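The share of reads on long annotated transcripts was 5.20% of all reads. It was 7.62% of annotated reads, 7.28% with a limit of 3500 bases and 1.91% with 5000 bases, and 4.93% to 5.47% when either library was left out. Its difference between the libraries kept its sign and stayed past 0.05 in the 7 settings tried. The count of members called between the libraries was 55, and 3 by the edgeR exact test. Of the 10 members named for their ratio, 7 no longer passed that test, and all 10 kept their direction under TMM and DESeq2 scaling. The incomplete share of the members' genes exceeded that of other genes by 21.4 to 23.1 points when either library was left out, and by 19.6 to 32.4 points in the other settings. The count of member genes with an incomplete share that differed between libraries was 48, against 5 with spliced models only and 31 with genomic reads added. The cause of these changes was not tested. No paired analysis was possible because the 2 libraries form 1 group. Depth limits the rest: 811 members had 1 read, and leaving out a library leaves no test between libraries.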
